A study of Caenorhabditis elegans with 18 samples.

Results

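The dipeptidyl peptidase gene dpf-3 and the Argonaute gene alg-1 of Caenorhabditis elegans were lost singly and together, and the miRNA profile of each genotype was counted. The interaction described here is the difference between 2 effects of losing dpf-3, the effect in animals that lack alg-1 and the effect in animals that have it. It was taken per miRNA on the log2 scale as (dpf-3;alg-1 minus alg-1) minus (dpf-3 minus wild type), so that a value of 0 means that the folds of the 2 losses multiply. It is the same number as the effect of alg-1 loss in dpf-3 mutants minus that in wild type. All 12 libraries of these 4 genotypes were used, of 18 libraries and 6 genotypes in the series. The groups were wild type, labelled N2 (Bristol), the single mutants dpf-3(xe68) I and alg-1(gk214) X, and the double mutant that carries both alleles, with 3 libraries each. The Roman numeral or letter after an allele is its chromosome. All animals were young adults grown at 25 °C, and each library came from a pellet of whole worms, so no tissue was isolated. What each allele does to its gene is not stated in the labels, and miRNA counts do not measure either transcript, so these data hold no check of the mutated genes. The alg-2(ok304) and dpf-3(xe68);alg-2(ok304) libraries entered only as a comparison at the end.

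A miRNA works as a short guide held by an Argonaute protein, and the seed near its 5' end selects the mRNAs that are silenced. In worms ALG-1 and ALG-2 are the Argonautes that carry most miRNAs, and a miRNA without an Argonaute is usually degraded. DPF-3 belongs to the DPPIV family of peptidases, which trim the amino terminus of proteins, and in the C. elegans germline it is known to process Argonautes of the WAGO class. The comparison asks whether the miRNA profile responds to dpf-3 loss differently once alg-1 is gone.

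The libraries held 8.64 to 22.5 M counts (M for mega) each, and 145 to 154 miRNAs were counted at least once in each. Of 175 miRNAs, 139 passed the filter on low counts and were tested, and the other 36 held 0.00027% of the counts. Levels are CPM, counts per M counts after scaling by TMM, so that a level of 1 CPM rests on about as many counts as the library's total in M. Every pair of libraries of a genotype differed by more than sampling noise. The first library of dpf-3;alg-1 and the second of dpf-3 stood apart from their groups for the mir-35 family and for mir-788, as their values below show.

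The response to dpf-3 loss depended on alg-1 for 96 of the 139 miRNAs, or 69.1%, in the quasi-likelihood test of edgeR at a Benjamini-Hochberg adjusted p below 0.05. The interaction was positive for 40 (28.8%) and negative for 56 (40.3%), and it reached at least 4-fold for 16 and 10 of them. A miRNA is called positive where the double mutant lies above, and negative where it lies below, the level expected if the folds of the single losses multiplied. Of the same 139 miRNAs, 33.8% passed for dpf-3 against wild type and 76.3% for dpf-3;alg-1 against alg-1, 84.2% for alg-1 against wild type and 58.3% for dpf-3;alg-1 against dpf-3. The median interaction was -0.23, the median of its absolute size was 0.87 and the median standard error (SE) was 0.20. All 96 called interactions had the same sign when the difference of differences was taken in mean CPM. The split depends on the scaling of the libraries. It was 40 and 54 with RLE factors, 42 and 49 with library totals alone and 15 and 104 with upper quartile factors, where the median shift of the interaction was -1.43. It was 47 and 41 without dpf-3 replicate 2, the library that TMM takes as its reference, and from 39 and 56 to 51 and 41 as each of the 18 libraries served as that reference.

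**Figure D1:**
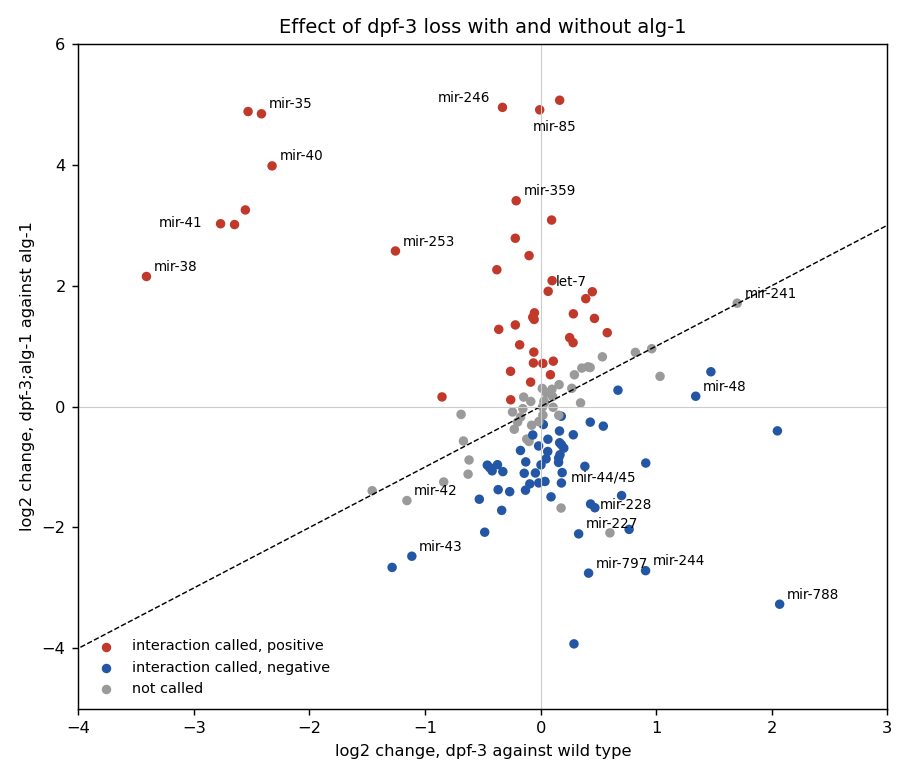
Each point is 1 of the 139 tested miRNAs, with the log2 change on loss of dpf-3 in wild type on the x axis and in alg-1 mutants on the y axis, and the dashed line marks equal effects. Red and blue points passed the edgeR test of the interaction with positive (40) and negative (56) values, and the mir-35 family members at the upper left and mir-788 at the lower right moved in opposite directions in the 2 backgrounds.

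A first group of miRNAs was low in alg-1 mutants, changed little on dpf-3 loss when alg-1 was present and was near or above wild type in the double mutant. mir-85 stood at 7185, 8664 and 8118 CPM in wild type, 8724, 6826 and 8291 in dpf-3, 275, 271 and 245 in alg-1 and 8979.8, 7422 and 7385 in dpf-3;alg-1. The alg-1 libraries lie far below the others, and those of the other 3 genotypes overlap. Loss of dpf-3 changed mir-85 by -0.0077 (SE 0.11) in wild type, which did not pass the test, and raised it by 4.91 (SE 0.14) in alg-1 mutants. The interaction of 4.92 (SE 0.17) had an adjusted p of 8.3e-14. If the folds multiplied, the double mutant would have stood at 262 CPM, and it was measured at 7929 ± 910.2 CPM (SD, n = 3), 30.2 times as much.

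mir-246, a miRNA linked to ageing in worms, followed with 5216, 4736 and 4547 CPM in wild type, 3979, 2966 and 4590.3 in dpf-3, 215, 201 and 199 in alg-1 and 7951, 5476 and 5601 in dpf-3;alg-1. Here the double mutant lay above wild type in every library, and the log2 interaction of mir-246 was 5.28 (SE 0.24). The change of mir-246 on dpf-3 loss in wild type did not pass. It did with DESeq2, at -0.39, and without dpf-3 replicate 3, at -0.48. mir-1817, a rarer miRNA, was at 44.6, 59.4 and 61.9 CPM in wild type, 69.4, 49.0 and 67.5 in dpf-3, 1.10, 1.36 and 1.54 in alg-1 and 51.5, 36.6 and 46.3 in dpf-3;alg-1. It was close to 1 CPM in alg-1 and within or near the wild type range in the double mutant. Its interaction was 4.90 (SE 0.28), and the double mutant was 30.0 times its expected level. mir-359 stood at 972, 889 and 828 CPM in wild type, 795, 627 and 901 in dpf-3, 78.9, 69.8 and 55.6 in alg-1 and 828, 659 and 679.8 in dpf-3;alg-1, with an interaction of 3.62 (SE 0.26). Its highest double mutant library was level with the lowest wild type library.

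mir-240 and mir-786 come from genes that lie next to each other, and mir-786 is known for setting the rhythm of defecation from the intestine. mir-786 was at 104, 112 and 106 CPM in wild type, 147, 93.7 and 103 in dpf-3, 18.8, 18.4 and 14.9 in alg-1 and 149, 154 and 141 in dpf-3;alg-1, and the double mutant again exceeded wild type in every library. The log2 interactions of the neighbours were 3.004 (SE 0.20) and 2.99 (SE 0.20). mir-77 differed from these in that its double mutant lay below wild type. It stood at 16620.4, 20235 and 19980.3 CPM in wild type, 16339, 11879 and 15505 in dpf-3, 2974, 2562 and 2033 in alg-1 and 15754, 10088 and 10539.8 in dpf-3;alg-1. Its interaction was 2.64 (SE 0.26). Its change on dpf-3 loss in wild type, -0.38 (SE 0.18), did not pass, although it did with RLE factors and with DESeq2.

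mir-253 differed from this group because each single loss lowered it and the double mutant lay above wild type. It stood at 345, 322 and 337 CPM in wild type, 152, 128 and 140.2 in dpf-3, 123, 122 and 112 in alg-1 and 818, 645 and 662 in dpf-3;alg-1. The 4 genotypes are ordered with the double mutant highest, wild type next and the single mutants lowest, and the double mutant overlaps no other genotype. dpf-3 loss lowered mir-253 by 1.26 log2 units in wild type and raised it by 2.57 in alg-1 mutants, for an interaction of 3.83 (SE 0.25) and an adjusted p of 5.0e-10. The fall of mir-253 on alg-1 loss in wild type did not pass with upper quartile factors. Its expected level was 49.8 CPM and the measured mean 708 ± 95.2 CPM (SD, n = 3).

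The miRNAs with the largest positive interactions were members of the mir-35 family, miRNAs of oocytes and embryos without which embryos die. Here too the effect of dpf-3 loss had opposite signs in the 2 backgrounds. mir-35 was at 45338, 57408 and 50099 CPM in wild type, 10449, 6247 and 11954 in dpf-3, 907, 937 and 809 in alg-1 and 39026, 18729.9 and 18465 in dpf-3;alg-1. No genotype overlaps another, and wild type was highest, the double mutant next, dpf-3 below it and alg-1 lowest. dpf-3 loss lowered mir-35 by 2.42 in wild type and raised it by 4.84 in alg-1 mutants, for an interaction of 7.26 (SE 0.41). Its expected level in the double mutant was 166 CPM, against 25407 ± 11795 CPM measured (SD, n = 3).

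Of the 8 family members 7 had a called positive interaction, from 5.56 (SE 0.62) for mir-38 to 7.41 (SE 0.40) for mir-37, with a family median of 5.80 against -0.23 over all tested miRNAs. mir-38 stood at 498, 519 and 503 CPM in wild type, 57.2, 26.3 and 59.2 in dpf-3, 24.9, 26.7 and 24.8 in alg-1 and 191, 76.3 and 72.5 in dpf-3;alg-1. The first dpf-3;alg-1 library was far above its fellows, and the second dpf-3 library far below its own. Without that dpf-3;alg-1 library the interaction of mir-38 was 4.96 and that of mir-35 was 6.81, and both calls held. The summed level of the family ran from 115777 to 141543 CPM in wild type, 15518 to 28682 in dpf-3, 3389 to 3782 in alg-1 and 44061 to 93569 in dpf-3;alg-1, and no member was at 0 in any of these groups. In whole worms, fewer oocytes or embryos and less of these miRNAs per cell cannot be told apart.

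mir-42 was the exception in the family. It stood at 456, 684 and 643 CPM in wild type, 203, 429 and 168 in dpf-3, 843, 767 and 667 in alg-1 and 164, 296 and 315 in dpf-3;alg-1. The level was high in wild type and alg-1 and low in both genotypes without dpf-3, with the second dpf-3 library near the lowest wild type library. Its change on dpf-3 loss was -1.16 (SE 0.39) in wild type and -1.55 (SE 0.40) in alg-1 mutants, both of which passed, the first not without dpf-3 replicate 1 or 3 or wild type replicate 2 or 3, and the interaction of -0.40 (SE 0.55) did not (adjusted p 0.55). With upper quartile factors the interaction of mir-42 passed as negative.

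**Figure D2:**
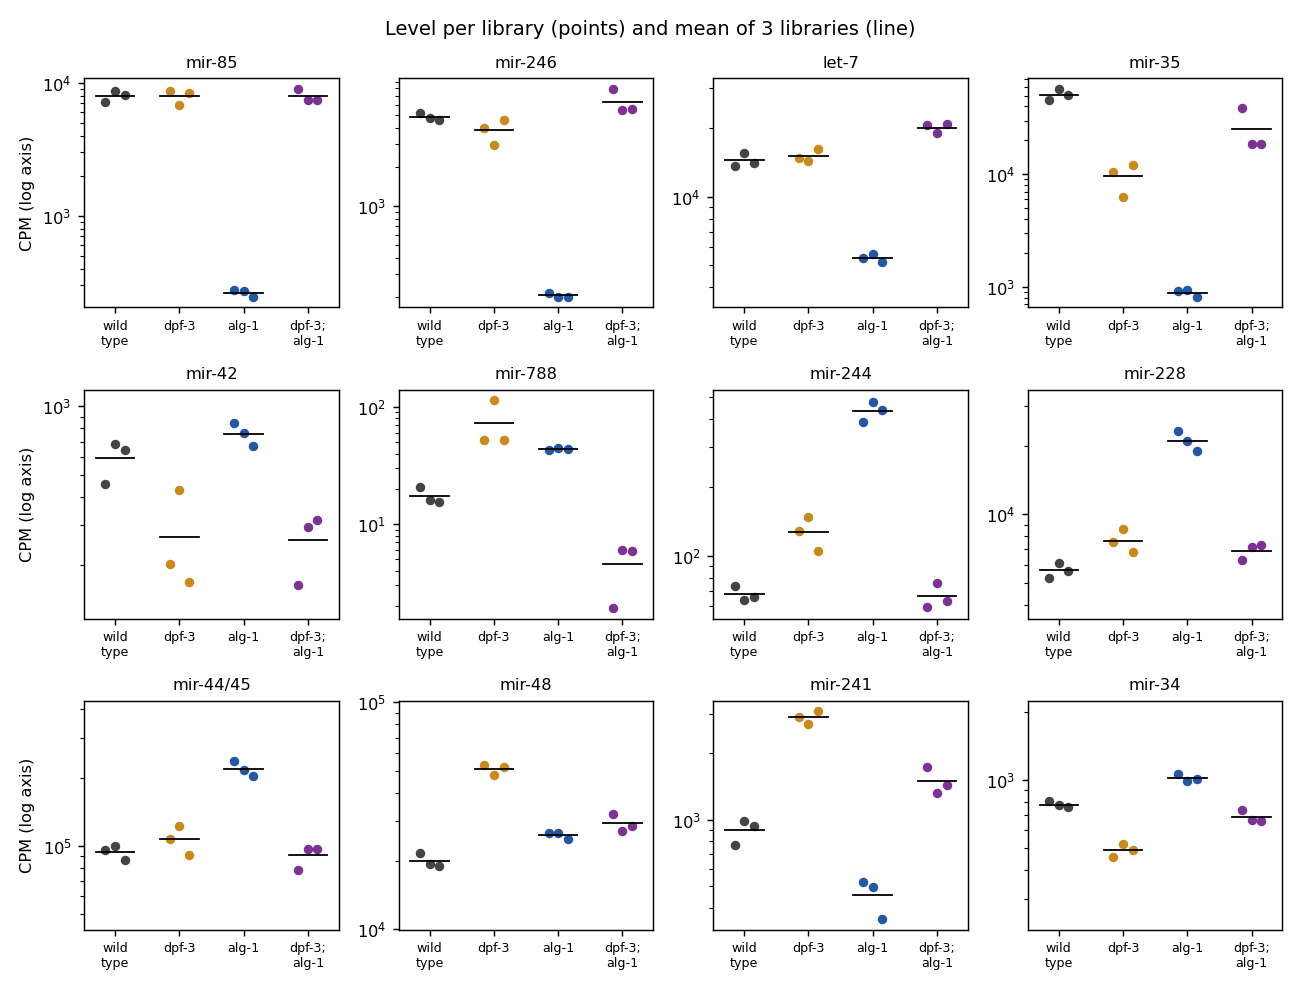
Each panel shows 1 miRNA with its CPM on a log axis in the 3 libraries of wild type, dpf-3, alg-1 and dpf-3;alg-1 (points, replicates 1 to 3 from left to right) and the group mean (line), and each panel has its own scale. mir-85, mir-246 and let-7 are low in alg-1 alone, mir-244 and mir-228 are highest in alg-1, and mir-241 and mir-34 shift by similar steps on dpf-3 loss in both backgrounds.

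Within the let-7 family, which times the passage of larvae to adulthood, the members went different ways. let-7 itself, the switch from larva to adult, was at 13626, 15568 and 14083 CPM in wild type, 14719, 14395 and 16180.3 in dpf-3, 5343, 5607 and 5163 in alg-1 and 20578, 19000.0 and 20864 in dpf-3;alg-1. The alg-1 libraries are the lowest and the double mutant libraries the highest, with no overlap with wild type. dpf-3 loss changed let-7 by 0.066 (SE 0.11) in wild type, which did not pass, and raised it by 1.91 in alg-1 mutants, for an interaction of 1.84 (SE 0.16). Upper quartile factors left the interaction of let-7 at 0.42 with an adjusted p of 0.057, and it was called under every other scaling tried.

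mir-48, which acts beside let-7 in larval timing, had a negative interaction. It stood at 21791, 19426 and 19068 CPM in wild type, 53178, 47892 and 51805 in dpf-3, 26533, 26475 and 25127 in alg-1 and 32261, 27206 and 28535 in dpf-3;alg-1. The dpf-3 libraries lie far above those of the other 3 genotypes. dpf-3 loss raised mir-48 by 1.34 in wild type, while in alg-1 mutants its change of 0.17 (SE 0.083) did not pass (adjusted p 0.069). The interaction was -1.17 (SE 0.12) with an adjusted p of 1.0e-07, and the double mutant reached 29334 ± 2620.3 CPM (SD, n = 3) where multiplied folds give 66046.

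mir-241 acts with mir-48 and its gene lies next to that of mir-48, yet it showed no detectable interaction. It was at 767, 982 and 933 CPM in wild type, 2916, 2706 and 3102 in dpf-3, 523, 495 and 354 in alg-1 and 1739, 1323 and 1432 in dpf-3;alg-1. Both genotypes without dpf-3 lie above their counterparts with it, by 1.70 (SE 0.14) in wild type and 1.71 (SE 0.14) in alg-1 mutants. The interaction was 0.0099 (SE 0.20), the expected level 1488 CPM and the measured mean 1498 ± 216 CPM (SD, n = 3). The difference between the interactions of the neighbours mir-48 and mir-241 was not tested. With upper quartile factors mir-241 would be called negative, at -1.40.

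Of the 8 let-7 family members, 4 were positive, 1 was negative and 3 did not pass, and the median was 0.24. Over all 139 tested miRNAs 28.8% were positive and 40.3% negative. The other positive members were mir-84 at 0.44 (SE 0.13), mir-794 at 0.69 (SE 0.15) and mir-795 at 0.99 (SE 0.23). With upper quartile factors mir-84 and mir-794 passed as negative, and mir-795 fell to -0.43 and did not pass. The family's summed level was 41546 to 43748 CPM in wild type, 72555 to 79542 in dpf-3, 36853 to 39288 in alg-1 and 56359.8 to 64952 in dpf-3;alg-1. Of the 6 developmental timing miRNAs 2 were positive and 2 negative, the latter being mir-48 and lin-4. lin-4, the first miRNA found and a regulator of early larval fates, rose by 0.28 on dpf-3 loss in wild type and fell by 0.47 in alg-1 mutants, for an interaction of -0.75 (SE 0.13). mir-237, which shares the lin-4 seed, did not pass at 0.25 (SE 0.13), although it passed as positive with library totals alone, with a filter at 10 CPM, with the mir-35 family left out and without dpf-3 replicate 2, and turns negative with upper quartile factors.

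The negative interactions were led by mir-788, which each single loss raised and which lay below wild type in the double mutant. mir-788 was at 20.9, 16.2 and 15.4 CPM in wild type, 52.3, 115 and 52.7 in dpf-3, 42.7, 44.9 and 43.9 in alg-1 and 1.92, 6.03 and 5.90 in dpf-3;alg-1. Both single mutants lie above wild type and the double mutant lies below it, with no overlap between these groups and wild type. The second dpf-3 library is far above its fellows and the first dpf-3;alg-1 library far below its own. dpf-3 loss changed mir-788 by 2.07 (SE 0.39) in wild type and -3.27 (SE 0.45) in alg-1 mutants, for an interaction of -5.34 (SE 0.59). Without dpf-3 replicate 2 the interaction was -4.61. The expected level was 184 CPM and the measured mean 4.61 ± 2.34 CPM (SD, n = 3), 39.9 times lower.

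mir-244 was also above wild type in both single mutants, with alg-1 above dpf-3, and its double mutant libraries overlapped those of wild type. It stood at 73.7, 63.9 and 65.5 CPM in wild type, 129, 148 and 105 in dpf-3, 389, 478 and 439 in alg-1 and 59.8, 75.7 and 63.5 in dpf-3;alg-1. dpf-3 loss raised it by 0.91 in wild type and lowered it by 2.71 in alg-1 mutants, and the interaction was -3.62 (SE 0.26). mir-227 was at 477, 455 and 448 CPM in wild type, 583, 550.2 and 602 in dpf-3, 1134, 1031 and 901 in alg-1 and 229.7, 239 and 244 in dpf-3;alg-1. The double mutant is the lowest genotype for mir-227, and the interaction was -2.44 (SE 0.17). mir-230 likewise rose by 0.70 in wild type and fell by 1.47 in alg-1 mutants, with an interaction of -2.17 (SE 0.28). The rise of mir-230 in wild type did not pass without wild type replicate 1 or dpf-3 replicate 2. That of mir-227 passed, but was lost with RLE factors and with a filter at 10 CPM. It was also lost in 5 of the 6 fits that leave out a wild type or dpf-3 library.

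mir-797 and mir-247 come from neighbouring genes and were highest in alg-1. mir-797 stood at 11.4, 6.41 and 9.22 CPM in wild type, 8.73, 17.8 and 9.55 in dpf-3, 102, 120.0 and 120.3 in alg-1 and 12.5, 18.3 and 20.0 in dpf-3;alg-1, and mir-247 at 48.7, 37.4 and 37.3 CPM in wild type, 53.7, 106 and 50.2 in dpf-3, 313, 320.4 and 283 in alg-1 and 47.1, 89.5 and 87.7 in dpf-3;alg-1. The dpf-3 libraries of both overlap the double mutant. Their changes on dpf-3 loss in wild type, 0.42 (SE 0.33) and 0.77 (SE 0.31), did not pass, those in alg-1 mutants were -2.76 (SE 0.34) and -2.03 (SE 0.31), and their interactions were -3.17 (SE 0.47) and -2.80 (SE 0.44). Without dpf-3 replicate 2 the interactions were -2.54 and -2.11.

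Among the 10 most abundant miRNAs of wild type the largest negative value was that of mir-44/45, the sum of mir-44 and mir-45, which the files give identical values. It was at 96312, 100498 and 86638 CPM in wild type, 107479, 122589 and 91082 in dpf-3, 237810.0, 215899 and 202754 in alg-1 and 78676, 97252 and 97458 in dpf-3;alg-1. The 3 genotypes other than alg-1 overlap. The interaction was -1.44 (SE 0.17), and the double mutant had 91129 ± 10785 CPM (SD, n = 3) where 247927 was expected. mir-251 (-2.14), mir-79 (-1.58), mir-232 (-1.38), mir-242 (-1.37), mir-43 (-1.36), mir-67 (-1.28) and mir-233 (-1.28) complete the 15 largest negative interactions among miRNAs that averaged 10 CPM or more. All 7 were higher in alg-1 than in wild type, with changes from 0.91 for mir-79 to 2.66 for mir-251. The alg-1 level enters the interaction with a minus sign, so choosing the most negative interactions favours miRNAs that are high in alg-1. The count is therefore no separate result beside the 42.4% of all 139 miRNAs called higher.

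Other families divided by direction, beside 28.8% positive and 40.3% negative over all 139 tested miRNAs. All 5 members of the mir-64 family were positive, from 0.37 (SE 0.12) for mir-229 to 1.55 (SE 0.18) for mir-65, with a median of 0.84. Their sum fell to 19733 to 21769.7 CPM in alg-1 from 49123 to 59875 in wild type and was 37479 to 45249 in the double mutant. With upper quartile factors mir-63, mir-66 and mir-229 turn negative, and mir-64 and mir-65 do not pass. All 4 members of the mir-2 family were negative, with mir-250 at -0.60 (SE 0.15), mir-2 at -0.97 (SE 0.14), mir-43 at -1.36 (SE 0.24) and mir-797 as above. The call of mir-250 was lost without dpf-3 replicate 2, at -0.30.

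In the mir-51 family, worm relatives of miR-100, 3 of 6 members were negative, mir-52 at -0.96 (SE 0.13), mir-53 at -1.25 (SE 0.15) and mir-54 at -1.25 (SE 0.17). The other 3, mir-51 at -0.24, mir-55 at 0.20 and mir-56 at -0.28, did not pass. In the mir-72 family mir-72 was negative at -0.79 (SE 0.12) and mir-74 at -0.51 (SE 0.17), and mir-73 did not pass at -0.056 (SE 0.13). The call of mir-74 was lost without dpf-3 replicate 2, at -0.18, and also with library totals alone, with a filter at 10 CPM and with the mir-35 family left out. mir-51, mir-55, mir-56, mir-61 and mir-73 passed as negative with upper quartile factors. With the mir-35 family left out mir-55 passed as positive, at 0.40. In the mir-44 family mir-44/45 and mir-247 were negative, while mir-61 did not pass at -0.023 (SE 0.15). alg-1 loss raised mir-61 by 0.98 (SE 0.11) in wild type and 0.96 (SE 0.11) in dpf-3 mutants. Reads that match several members may be shared out among them, so the division within these families is uncertain.

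The mir-58 family, relatives of the fly growth regulator bantam, was divided. mir-82 was positive at 1.64 (SE 0.15), with 59995, 55526 and 49634 CPM in wild type, 45089.5, 36967 and 46453 in dpf-3, 18162, 18165 and 15752 in alg-1 and 45699.7, 40119 and 40462 in dpf-3;alg-1. Its call was lost with upper quartile factors, at 0.23. mir-81, whose gene lies beside that of mir-82, was positive at 1.20 (SE 0.16). With upper quartile factors mir-81 fell to -0.21 and did not pass. mir-80, a regulator of responses to diet, was negative at -1.08 (SE 0.24). It was at 33679, 51021 and 50359.8 CPM in wild type, 54571, 42750.3 and 53123 in dpf-3, 32106, 23498 and 20998 in alg-1 and 14705, 12191 and 13495 in dpf-3;alg-1. The double mutant is the lowest genotype for mir-80. mir-58 passed by a small margin at -0.32 (SE 0.13) (adjusted p 0.042), and its call was lost without dpf-3 replicate 2, where the value was -0.03, and in 7 of the other 11 fits that leave out a library. Those 7 left out replicate 2 or 3 of wild type, replicate 3 of dpf-3, replicate 1 or 2 of alg-1 or replicate 2 or 3 of dpf-3;alg-1. The call of mir-58 was also lost with RLE factors, library totals alone, a filter at 10 CPM and the mir-35 family left out, where its value was -0.12.

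Mirtrons are miRNAs cut from introns by splicing. mir-1020 was positive at 1.60 (SE 0.19), mir-62 negative at -0.96 (SE 0.16), and mir-1018 did not pass at -0.42 (SE 0.28). The call of mir-1020 was lost with upper quartile factors, at 0.18, and mir-1018 passed as negative, at -1.84. mir-1020 stood at 83.7, 92.6 and 98.7 CPM in wild type, 86.2, 88.3 and 90.6 in dpf-3, 13.6, 12.7 and 10.2 in alg-1 and 37.4, 33.1 and 36.9 in dpf-3;alg-1. The double mutant lies between alg-1 and the other genotypes without overlap. mir-62 was at 192, 185 and 188 CPM in wild type, 241, 190.3 and 203 in dpf-3, 154, 145 and 119 in alg-1 and 80.9, 84.5 and 75.4 in dpf-3;alg-1. Here the double mutant is lowest, below alg-1. Among the 8 ageing and stress miRNAs 1 was positive and 4 were negative, beside 28.8% and 40.3% of all 139. mir-246 was positive, while lin-4, mir-80, mir-238 and mir-239a were negative, the last 2 at -0.40 (SE 0.16) and -0.75 (SE 0.22). mir-71, which lengthens life in worms, did not pass at 0.56 (SE 0.32), although it did as positive with the mir-35 family left out and as negative with upper quartile factors. The call of mir-239a was lost without dpf-3 replicate 2, at -0.51. That of mir-238 was lost without wild type replicate 1, without replicate 1 or 2 of dpf-3 or alg-1 and without dpf-3;alg-1 replicate 2. Of these fits the value nearest 0 was -0.15, without dpf-3 replicate 2. The call of mir-238 was also lost with library totals alone, a filter at 10 CPM and the mir-35 family left out.

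**Figure D3:**
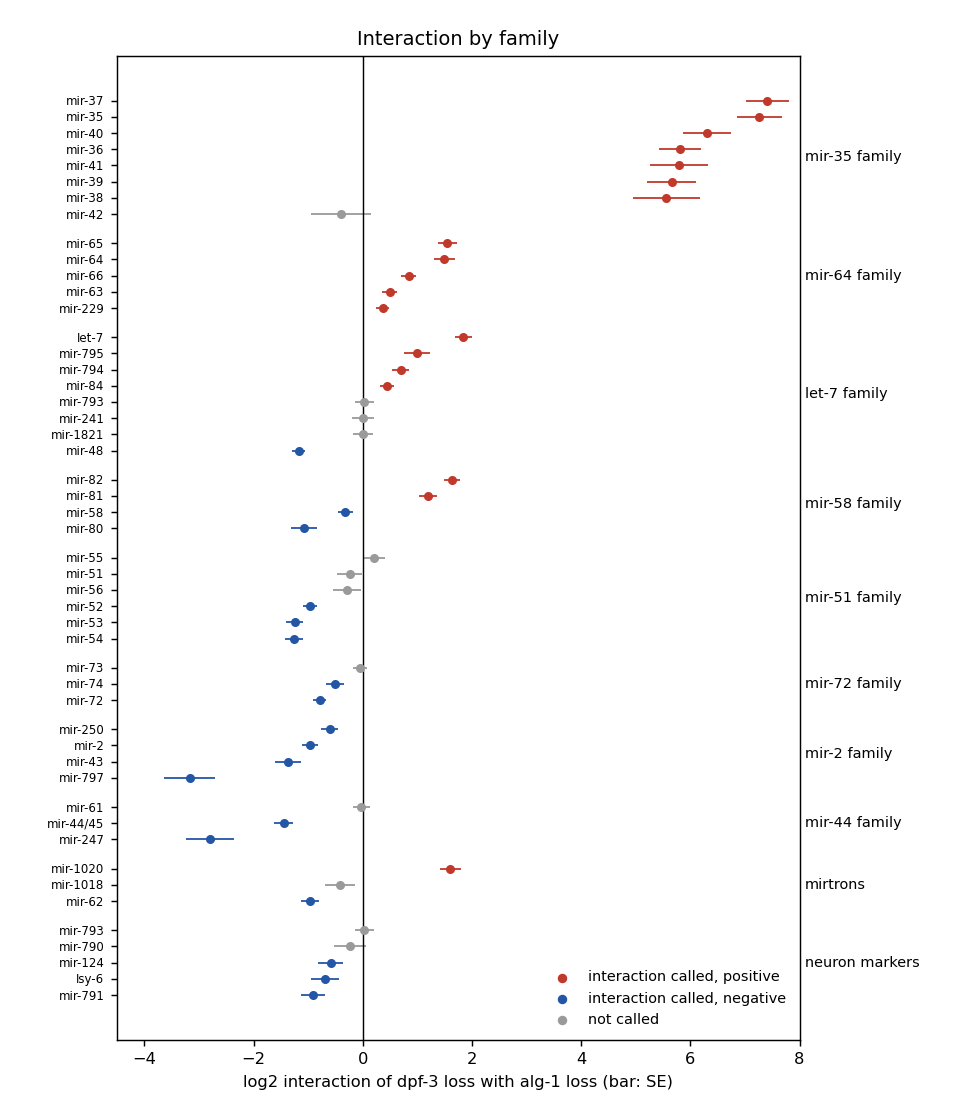
Points give the log2 interaction of each tested member of 10 lists and bars its SE, with red for called positive, blue for called negative and grey for not called at an adjusted p of 0.05. All 5 members of the mir-64 family and 7 of 8 in the mir-35 family lie above 0, the 4 members of the mir-2 family lie below 0, and the let-7 and mir-58 families lie on both sides.

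Some markers of neurons, glia and intestine had called interactions, as did 69.1% of all 139 tested miRNAs, 40.3% of them negative over the 139. Of 5 neuron markers 3 were negative, mir-791, known from sensory neurons that detect carbon dioxide, at -0.91 (SE 0.22), lsy-6, which sets the left and right identities of a pair of taste neurons, at -0.69 (SE 0.25) and mir-124 at -0.59 (SE 0.22). mir-790 at -0.23 (SE 0.30) and mir-793 at 0.032 (SE 0.18) did not pass. The summed level of the 5 was 1199 to 1276 CPM in wild type, 1076 to 1479.5 in dpf-3, 1941 to 3026 in alg-1 and 1821 to 2329 in dpf-3;alg-1, and none was at 0. The sum is mostly mir-790 and mir-793, which averaged 1157 and 508 CPM over the 12 libraries. The called mir-791, lsy-6 and mir-124 averaged 48.4, 24.2 and 14.8 CPM, so the sum says little about them. The calls of lsy-6 and mir-124 were lost without dpf-3 replicate 2, at -0.33 and -0.30. That of lsy-6 was also lost without replicate 1 of wild type or alg-1, and that of mir-124 without wild type replicate 3, alg-1 replicate 2 or dpf-3;alg-1 replicate 1 or 3. With the mir-35 family left out both calls were lost, and that of mir-124 also with library totals alone and with a filter at 10 CPM. mir-790 passed as negative and mir-793 turned negative with upper quartile factors.

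The glia marker mir-228 was at 5263, 6088 and 5641 CPM in wild type, 7523, 8622 and 6791 in dpf-3, 23392, 21028 and 18997 in alg-1 and 6263, 7161 and 7333 in dpf-3;alg-1. It was highest in alg-1 with no overlap, and its interaction was -2.04 (SE 0.19). The intestine marker mir-60 was negative at -0.55 (SE 0.16), a call lost without dpf-3 replicate 2, at -0.35, and with the mir-35 family left out. Its level was 1819 to 2305 CPM in wild type, 1721 to 1977 in dpf-3, 3062 to 3414 in alg-1 and 1815 to 2232 in dpf-3;alg-1. The muscle marker mir-1, the most abundant miRNA of wild type, did not pass at 0.063 (SE 0.14), although it did as positive without dpf-3 replicate 2 and as negative with upper quartile factors, and its level was 146484 to 162246 CPM in wild type, 144018 to 180111 in dpf-3, 137167 to 162303 in alg-1 and 158226 to 176508 in dpf-3;alg-1. The part of tissue content in the interaction was not tested.

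Some miRNAs responded to dpf-3 loss in the same direction in both backgrounds without a called interaction. The 5 with the largest shared change were mir-241 and mir-42, given above, and mir-1819, mir-249 and mir-34. mir-34, a miRNA of stress responses, was at 804, 773 and 761 CPM in wild type, 460.3, 521 and 491 in dpf-3, 1064, 994 and 1005 in alg-1 and 737, 669.8 and 658 in dpf-3;alg-1. The genotypes without dpf-3 are lower than their counterparts with no overlap, by 0.67 and 0.57 log2 units, and the interaction was 0.10 (SE 0.16). mir-249 fell by 0.62 in wild type and by 0.88 in alg-1 mutants, and mir-1819 rose by 0.96 and 0.96. A p that misses the threshold does not show that the effects were equal, and at an SE of 0.20 for mir-241 an interaction of about that size was not detectable. With upper quartile factors all 5 would have called negative interactions, the falls of mir-34, mir-42 and mir-249 on dpf-3 loss in wild type would not pass, and the change of mir-1819 in alg-1 mutants would be below 0.

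The interactions of miRNAs from neighbouring genes were set side by side. In all, 123 tested miRNAs were found by symbol in the WBcel235 annotation, which was used only for neighbours. Of pairs of genes at most 5000 bases apart and from different families, 16 were found, and in 7 both members were called, all 7 with the same sign. Since 69.1% of all 139 miRNAs were called, both being called is common among any pairs, and an excess among neighbours was not tested. The 7 pairs were mir-240 with mir-786, mir-247 with mir-797, mir-359 with mir-785, mir-357 with mir-358, mir-43 with mir-44/45, mir-74 with mir-75 and mir-80 with mir-238. mir-44/45 was placed by the mir-44 gene alone, although its value sums mir-44 and mir-45. Upper quartile factors turned mir-357 negative, and the calls of mir-74 and mir-238 depend on the fit, as given above. The median difference between neighbours of different families was 0.74 log2 units, against 1.42 between any pair of the 123 miRNAs. The 2 sets are unlike. The 123 include the mir-35 family with its large interactions, and of that family only mir-42 is in the 16 pairs. As exceptions, mir-249 did not pass at -0.26 (SE 0.17) although its neighbours mir-359 and mir-785 were at 3.62 and 1.57, and mir-790 did not pass beside mir-228. Pairs share libraries, and pairs within a cluster overlap, so these are descriptions.

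Interactions with dpf-3 loss were not limited to alg-1. With alg-2, the other Argonaute, 39 of the 139 miRNAs had a called interaction, 23 positive and 16 negative. The interaction with alg-1 minus the interaction with alg-2 equals the effect of dpf-3 loss in alg-1 mutants minus that in alg-2 mutants, since the wild type and dpf-3 terms cancel. The alg-2 and dpf-3;alg-2 libraries carry a library name in their labels that the other 12 lack, and each of the 2 effects lies within 1 of these kinds of label. The difference passed the edgeR test for 92 of 139 miRNAs (66.2%), and for all 30 of the largest positive and negative interactions named above. For mir-85 dpf-3 loss changed the level by 4.91 in alg-1 mutants and 0.16 in alg-2 mutants, a difference of 4.76 (SE 0.17). The differences were 4.23 (SE 0.23) for mir-246, 4.53 (SE 0.39) for mir-35, 2.09 (SE 0.16) for let-7, -3.44 (SE 0.58) for mir-788 and -3.47 (SE 0.26) for mir-244. Upper quartile factors gave 18 higher and 96 lower differences and ended the call of mir-41. The summed mir-35 family was low in alg-2 too, at 3982 to 4976 CPM, and was 4427 to 4856 CPM in dpf-3;alg-2. In wild type it was 115777 to 141543 CPM, a comparison across the 2 kinds of label.

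The larval timing miRNAs mir-48 and mir-241 were also compared between the Argonautes. mir-48 changed by 0.17 and 0.12 on dpf-3 loss in alg-1 and alg-2 mutants, and the difference of 0.053 (SE 0.12) did not pass (adjusted p 0.69). mir-241 rose by 1.71 in alg-1 mutants and changed by 0.17 in alg-2 mutants, a difference of 1.54 (SE 0.20) that passed, although it did not with upper quartile factors, at 0.38. Whether these 2 miRNAs differ from each other was not tested. For the neuron markers lsy-6, mir-790, mir-791 and mir-793 and for mir-1, mir-58, mir-71 and mir-80 no difference was called.

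**Figure D4:**
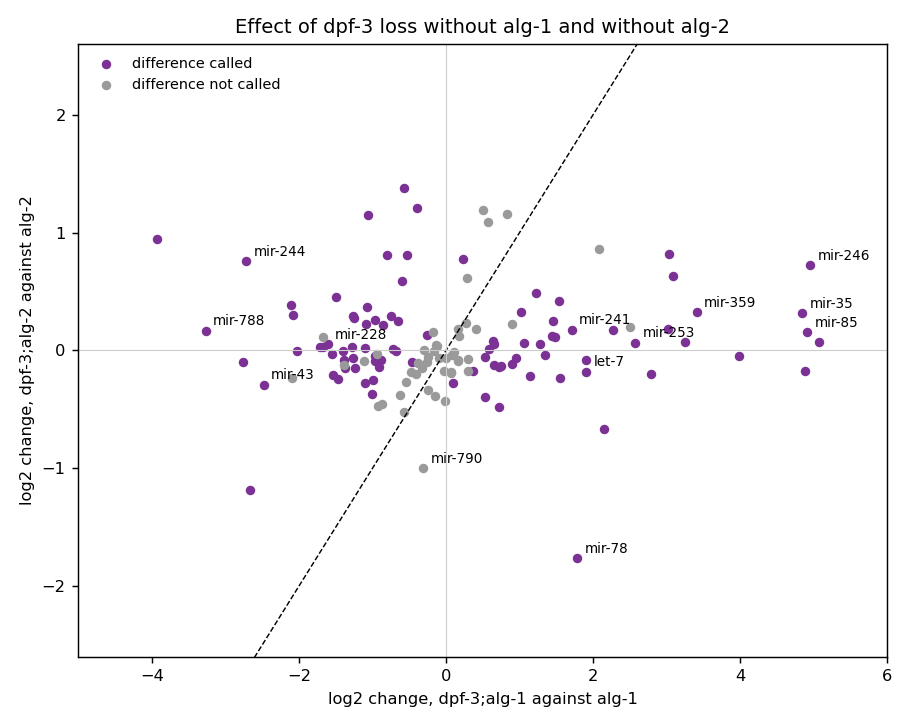
Each point is 1 of 139 tested miRNAs, with the log2 change on loss of dpf-3 in alg-1 mutants on the x axis and in alg-2 mutants on the y axis, from 4 separate groups of 3 libraries. Purple points (92) passed the test of the difference, the dashed line marks equal changes, and the points spread further along the x axis than along the y axis.

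**Figure D5:**
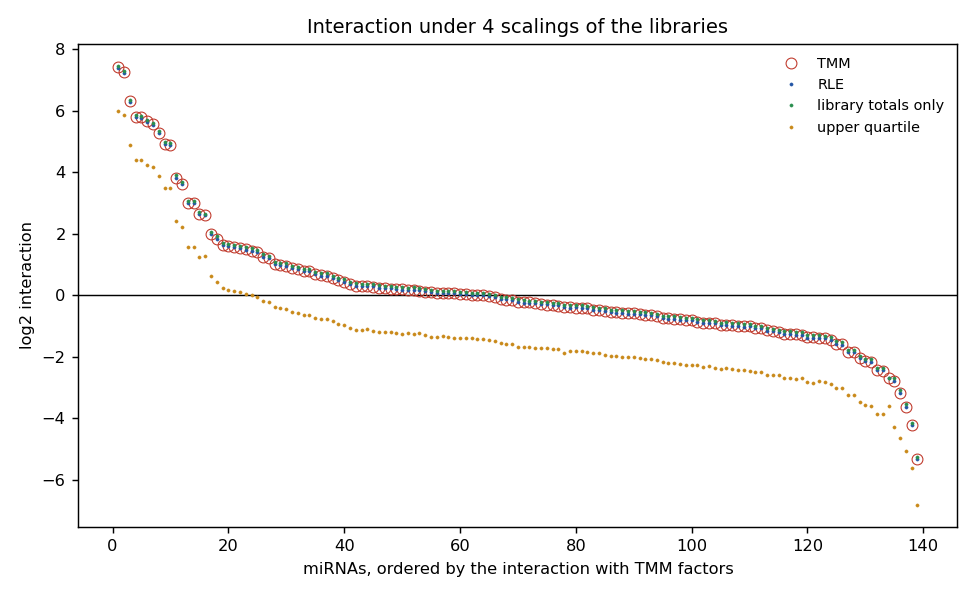
The log2 interaction of the 139 tested miRNAs, ordered along the x axis by its value with TMM factors, is drawn under 4 scalings of the libraries. TMM, RLE and library totals lie close together, while upper quartile factors shift the interaction by a median of -1.43 and leave 15 called above 0.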

How the data were processed

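Small RNA was sequenced from young adult worms. Per the labels' protocols, Trizol RNA went into NEBNext libraries, of which the band of about 140 bp was taken from a gel. Bowtie 0.12.7 is named in the submitters' processing notes. Neither build nor miRNA annotation is given in the sources used here. The authors deposited expected counts, without normalization, for each miRNA. Between 75.4% and 87.4% of a library's values were whole at a tolerance of 1e-06. Column 5, the sum of columns 3 and 4, was used, mir-44 and mir-45 (identical) were summed, and values were rounded. How reads with several matches were shared out is not stated.

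All 18 libraries entered 1 fit in edgeR 4.0.16 (R 4.3.3) with genotype as the term, 12 residual degrees of freedom, TMM factors (0.876 to 1.10 in the 12 libraries), a filter of 10 counts in the smallest group and 15 in total, robust dispersions and a quasi-likelihood test with Benjamini-Hochberg adjustment over 139 miRNAs. The common biological coefficient of variation was 14%. The SE is the change divided by the root of its F statistic. DESeq2 1.42.0, limma-voom (limma 3.58.1), other scalings and filters, the 12 libraries alone and fits without each library were the alternatives. The fit was tested on simulated data with known interactions, in 25 simulations. It recovered 34.5% of the 1.5-fold, 77.1% of the 2-fold and 96.4% of the 4-fold interactions. Of its calls 8.77% were false, a share above the threshold set on the adjusted p. In each simulation 33 of 139 miRNAs were changed, by at most 4-fold and in random directions. Counts were drawn with the scaling factors and dispersions of the fit itself. The data had more and larger interactions, so these shares are not error rates of the calls above. The simulation also cannot show what the choice of scaling does.

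Named miRNAs are the 15 largest positive and 15 largest negative called interactions with a mean of at least 10 CPM over the 12 libraries, the 10 most abundant in wild type, members of the lists, and the 5 with the largest shared dpf-3 effect and no called interaction, some left out for length. Members and lists were chosen with earlier results of these data known. Whether replicates are separate cultures is not in the labels. The p-values therefore rest on the spread between these libraries, possibly technical.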

Additional observations from a re-analysis of the deposited data

Results flagged for a closer look

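The following 60 are those named miRNAs whose log2 effect of dpf-3 loss in alg-1 mutants differed from that in wild type, by edgeR's test of the difference itself. Of all tested miRNAs 96 passed that test, and those outside the named set are not listed. Values are effect in alg-1 mutants minus effect in wild type.

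The mir-35 family members other than mir-42, which fell on dpf-3 loss in wild type and rose in alg-1 mutants, stood at 7.41 for mir-37, 7.26 for mir-35, 6.31 for mir-40, 5.81 for mir-36, 5.80 for mir-41, 5.66 for mir-39 and 5.56 for mir-38. The miRNAs that were low in alg-1 mutants stood at 5.28 for mir-246, 4.92 for mir-85, 4.90 for mir-1817, 3.62 for mir-359, 3.004 for mir-240, 2.99 for mir-786 and 2.64 for mir-77, and mir-253 at 3.83. The positive let-7 family members had 1.84 for let-7, 0.44 for mir-84, 0.69 for mir-794 and 0.99 for mir-795. The mir-64 family had 1.50 for mir-64, 1.55 for mir-65, 0.84 for mir-66, 0.49 for mir-63 and 0.37 for mir-229. Of the mir-58 family, the positive members had 1.64 for mir-82 and 1.20 for mir-81 and the negative ones -1.08 for mir-80 and -0.32 for mir-58. Among mirtrons the values were 1.60 for mir-1020 and -0.96 for mir-62.

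The lowest value, -5.34, was that of mir-788. Other low values were -3.62 for mir-244, -3.17 for mir-797, -2.80 for mir-247, -2.44 for mir-227, -2.14 for mir-251, -2.17 for mir-230 and -2.04 for mir-228. Further negative values were -1.58 for mir-79, -1.44 for mir-44/45, -1.38 for mir-232, -1.37 for mir-242, -1.36 for mir-43, -1.28 for mir-67 and -1.28 for mir-233. Larval timing miRNAs had -1.17 for mir-48 and -0.75 for lin-4. In the mir-51 family the values were -0.96 for mir-52, -1.25 for mir-53 and -1.25 for mir-54, in the mir-72 family -0.79 for mir-72 and -0.51 for mir-74, and in the mir-2 family -0.97 for mir-2 and -0.60 for mir-250 beside mir-43 and mir-797. The neuron markers had -0.91 for mir-791, -0.69 for lsy-6 and -0.59 for mir-124, the intestine marker mir-60 had -0.55, and the ageing and stress miRNAs had -0.40 for mir-238 and -0.75 for mir-239a.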

How the results depend on the processing

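The counts of called interactions stayed near 40 higher and 56 lower with RLE factors, library totals alone, no filter, DESeq2, limma-voom and the 12 libraries alone. They were 39 and 42 with a filter at 10 CPM and 40 and 46 with the mir-35 family left out. Leaving out each of the 12 libraries gave 37 to 47 higher and 41 to 55 lower. The scaling sets where 0 lies, so calls moved with it. These were mostly calls of small interactions under the settings just given. With upper quartile factors larger ones were lost too, such as let-7 (1.84 with TMM factors), mir-82 (1.64) and mir-1020 (1.60).

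With upper quartile factors the counts higher and lower were 15 and 104 for the interaction, 57 and 11 for dpf-3 loss in wild type, 22 and 101 for dpf-3 loss in alg-1 mutants, 94 and 25 for alg-1 loss in wild type and 18 and 96 for alg-1 minus alg-2. For alg-1 loss in dpf-3 mutants 19 were higher. The level at the upper quartile was 0.195 to 0.214% of counts in alg-1 libraries, against 0.466 to 0.501% in wild type, 0.365 to 0.456% in dpf-3 and 0.481 to 0.513% in dpf-3;alg-1. dpf-3 loss in wild type gave 11 higher with a filter at 10 CPM and 14 lower with the mir-35 family left out.

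Among the named miRNAs, the interactions that reversed with upper quartile factors were -1.37 for mir-1, -0.84 for mir-71, -1.40 for mir-241, -1.34 for mir-34, -0.98 for mir-84, -1.40 for mir-793, -0.74 for mir-794, -0.43 for mir-795, -1.44 for mir-1821, -1.18 for mir-237, -0.21 for mir-81, -1.23 for mir-55, -0.94 for mir-63, -0.59 for mir-66 and -1.06 for mir-229. The dpf-3 effect of mir-1819 in alg-1 mutants became -0.16, the alg-1 effect of mir-241 in wild type 0.19, and the alg-1 minus alg-2 difference of mir-1819 -0.15. The cause was not tested.

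With the replicate block 39 interactions were higher and 55 lower, and the calls of mir-58, and of dpf-3 loss in wild type for mir-42 and mir-232, were lost. The numbers were not used as pairs, since of 18 same-numbered pairs of libraries 3 had deviations that correlated above 0.1 (from -0.669 to 0.683), and 2 of 12 libraries correlated best with their own number.

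Among the named miRNAs, without dpf-3 replicate 2 the calls of lsy-6, mir-58, mir-60, mir-74, mir-124, mir-238, mir-239a and mir-250 were lost, and mir-1, mir-237 and mir-793 passed as positive. Of the 139 miRNAs tested, 24 had a mean under 10 CPM.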

Other observations

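The following miRNAs were chosen after their values were seen. mir-785, whose gene lies beside that of mir-359, had a called interaction of 1.57 (SE 0.13), and mir-358 one of 1.45 (SE 0.21). Upper quartile factors put them at 0.14 and 0.023. mir-90, mir-83 and mir-86 had called negative interactions of -1.01 (SE 0.15), -1.01 (SE 0.13) and -0.89 (SE 0.13). mir-262 had the second lowest interaction, -4.21 (SE 0.65), at a mean of 1.47 CPM over the 12 libraries.

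mir-799 stood apart among rare miRNAs. It had 223 counts over the 3 wild type libraries and 412 over those of dpf-3, but 1 count over the alg-1 libraries and 0 over those of dpf-3;alg-1, where a count of 0 over the group allows up to 3 counts. The alg-2 libraries held 337 counts and those of dpf-3;alg-2 held 225. Its interaction did not pass the edgeR test, and no fold is given for it since both groups without alg-1 were at or under the floor of 3 counts.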
